A study of Vitis vinifera with 27 samples.

Results

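Out of 35134 genes counted in latent buds of grapevine cv. Merlot, 68 kept a steady mRNA level from BBCH63 to BBCH77 and were reduced at least 32-fold at BBCH90. They were chosen from stage means of CPM, the share of a library's counts that fall on a gene, scaled to a common library size. The means at BBCH63 and at BBCH77 had to be 10 CPM or more and to differ by less than 2-fold, and the mean at BBCH90 had to be at most 1/32 of that at BBCH77. Each stage mean was taken over 8 libraries. A total of 11765 genes had a steady level of 10 CPM or more, and the 68 members were 0.578% of them. Because the stage means chose the members, the stage levels are a description, with no test.

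The latent bud forms in the axil of a leaf and carries the primordia that open in the following season. Around flowering of the shoot its meristem is still producing leaf primordia and is thought to become committed to inflorescences. Later in the season the bud stops growing, is closed by its scales and enters dormancy. Many transcripts of growing tissue are known to be low in dormant buds.

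RNA-Seq was carried out on buds of nodes 2, 5 and 10 of the shoot, counted from its base, at BBCH63 (anthesis), BBCH77 (cluster closure) and BBCH90 (harvest). All buds came from vines of 1 vineyard under the same management, grafted onto the same rootstock, and the 3 replicates of a group were separate pools of buds taken at 1 node. A stage was sampled on a single date of 1 season, so stage, date and weather cannot be told apart. The 9 groups held 27 libraries of 34531620 to 53307172 counts. In whole buds, fewer cells of a type and less RNA per cell cannot be told apart. Gene names and products were not paired with the identifiers in the tables used here, so that the members are given by identifier and no function is assigned to them.

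Replicate 3 of node 10 was left out at each stage. The library labelled BBCH90 node 10 replicate 3 held the same counts as BBCH63 node 2 replicate 2 at all 35134 genes, and that labelled BBCH77 node 10 replicate 3 had all 68 members nearer to their BBCH90 mean than to their BBCH77 mean. With these libraries included, the same limits gave 2 genes, and 0 of these were members. This was largely fixed in advance, since the BBCH90 mean then held the counts of a BBCH63 library. Some of the kept libraries also stood apart. In BBCH63 node 5 replicate 3 the most node-dependent members were near the level of node 10. In BBCH77 node 2 replicate 3 they were near the level of node 5. In BBCH90 node 5 replicate 1 the members summed to the highest level of that stage. Values without BBCH77 node 2 replicate 3 are given beside the calls at BBCH77.

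The 68 members had a median of 31.9 CPM at BBCH63, 33.3 CPM at BBCH77 and 0.543 CPM at BBCH90. Their BBCH77 means ranged from 10.5 to 499 CPM, and their BBCH90 means from 0.00323 to 10.8 CPM. From BBCH63 to BBCH77 the mean rose in 39 members and fell in 29, with a median ratio of 1.03. The fall from BBCH77 to BBCH90 had a median of 57.3-fold and was at least 64-fold in 30 members, 128-fold in 14 and 256-fold in 6. Over all 11765 genes with a steady level the median fall was 1.06-fold, and 1984 of these genes fell at least 2-fold, 372 at least 8-fold and 187 at least 16-fold. The members lie at the far end of this distribution.

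**Figure D1:**
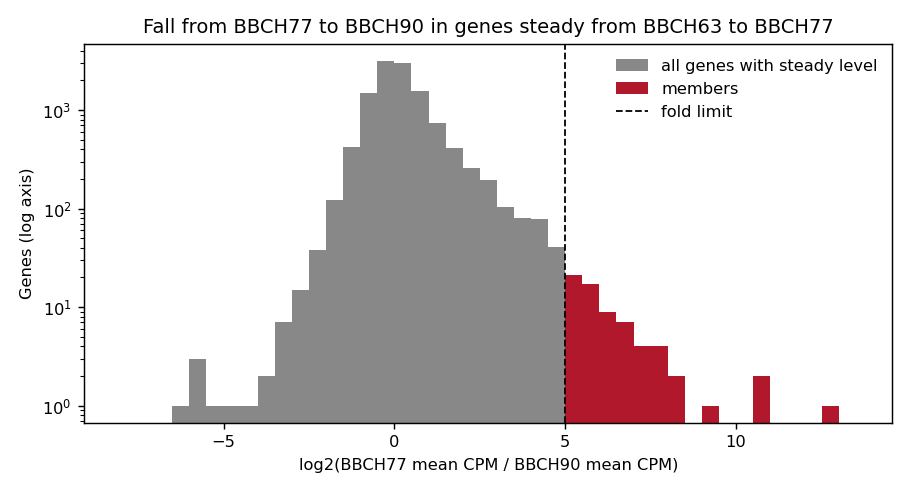
Number of genes (log axis) by the log2 ratio of the BBCH77 mean to the BBCH90 mean, for the 11765 genes with a steady level from BBCH63 to BBCH77. The dashed line is the fold limit, and the 68 members, in red, continue the slope of the grey bars on its left.

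At the limit, Vitvi05g00430, Vitvi11g01224 and Vitvi18g00917 were just inside, with falls of 32.5-fold, 32.6-fold and 32.8-fold. Vitvi12g02342, Vitvi17g00558 and Vitvi02g00348 were just outside, with falls of 31.7-fold, 31.1-fold and 31.0-fold. Another 54 genes met the fold limit and the limit of 10 CPM, but 30 of them had a ratio of BBCH77 to BBCH63 of 0.5 or less and 24 one of 2 or more. The identifiers of the members carried 18 chromosome numbers, with at most 8 members on one.

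The members summed to 2821 to 7280 CPM in the 8 libraries of BBCH63, to 3181 to 9231 CPM in those of BBCH77 and to 60.4 to 170 CPM in those of BBCH90. In 60 of the 68 the highest library of BBCH90 was below the lowest library of both earlier stages. This follows in large part from the 32-fold limit, which was set on the same libraries, and the share over all steady genes was not computed. The low level was seldom an absence of reads. No member was at 0 counts in all 8 libraries of BBCH90, 7 had at least 1 library at 0, and 49 had more than 3 counts in every library. The word silenced therefore describes a low level in most members.

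**Figure D2:**
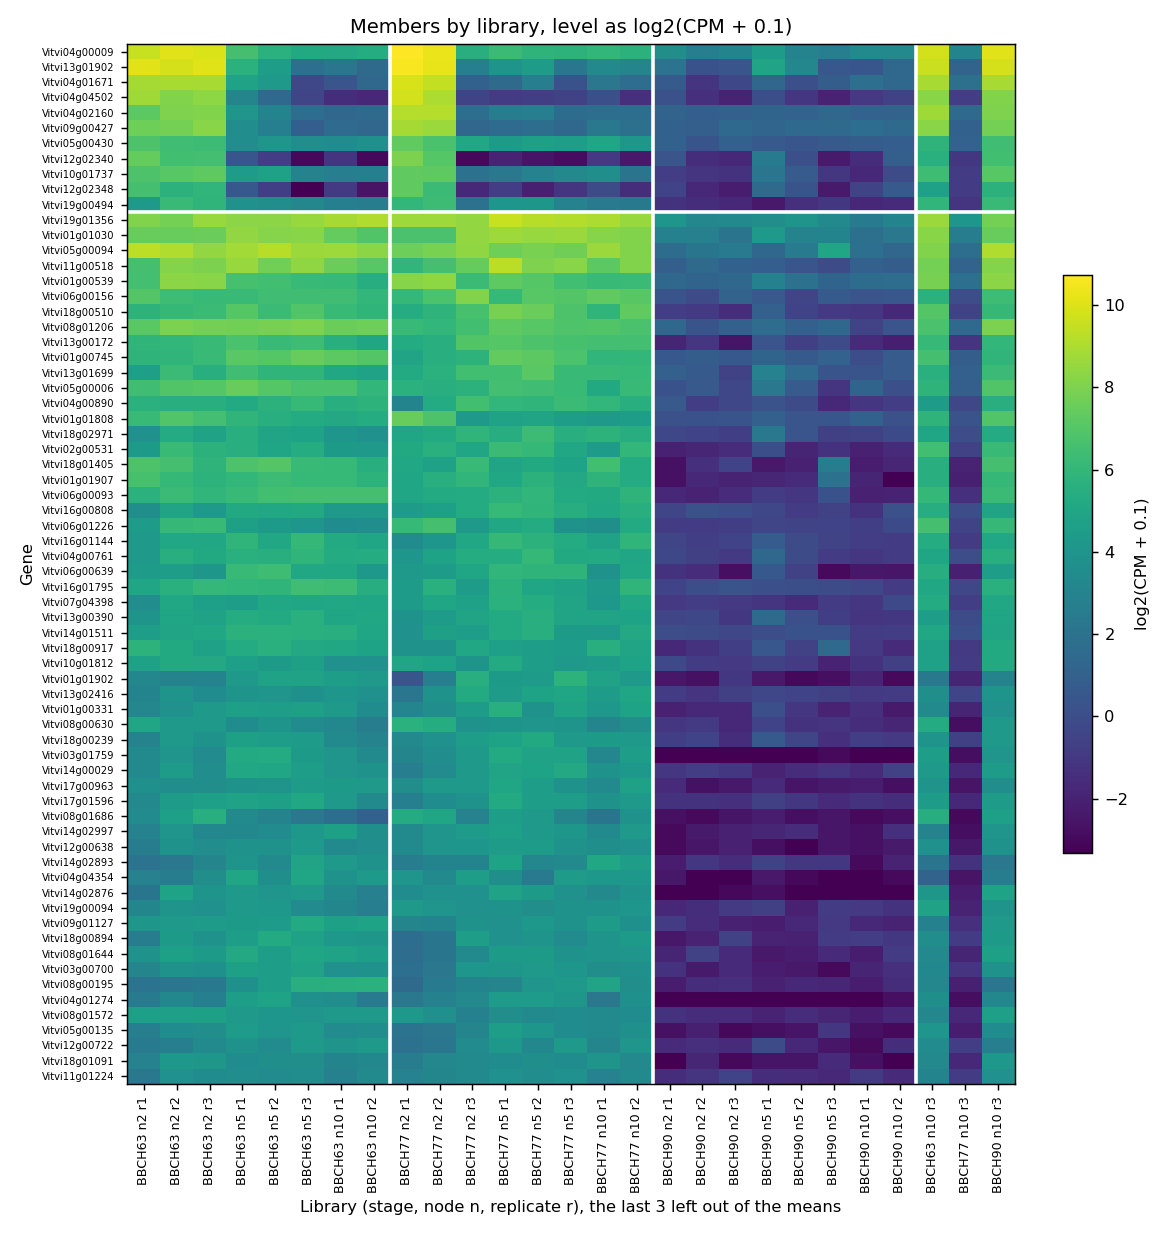
Level of each of the 68 members in each of the 27 libraries, as log2(CPM + 0.1), with the 11 members lower at node 5 at both earlier stages above the horizontal line and the 3 libraries left out at the right. The 11 members above the line are brightest in the 3 libraries of node 2 at BBCH63, in replicates 1 and 2 of node 2 at BBCH77 and in the left-out columns labelled BBCH63 and BBCH90 node 10 replicate 3.

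Vitvi19g01356 had the highest mean at BBCH77. At BBCH63 it had 271, 228 and 378 CPM at node 2, 321, 320.4 and 383 CPM at node 5, and 464 and 538 CPM at node 10. At BBCH77 it had 412, 413 and 360 CPM at node 2, 745, 601 and 566 CPM at node 5, and 522 and 375 CPM at node 10. At BBCH90 it had 16.7, 8.93 and 9.57 CPM at node 2, 12.2, 15.7 and 9.64 CPM at node 5, and 5.77 and 7.89 CPM at node 10. The gene was high at every node before harvest and low at every node at harvest, and the libraries of the earlier stages did not overlap with those of BBCH90. Its mean went from 499 ± 134 CPM to 10.8 ± 3.81 CPM (SD, n = 8 libraries over the 3 nodes), a fall of 46.2-fold.

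Vitvi01g01030 was also expressed at every node. At BBCH77 it had 103, 105 and 348 CPM at node 2, 417, 383 and 392 CPM at node 5, and 293 and 271 CPM at node 10. At BBCH90 it had 7.04, 6.89 and 4.21 CPM at node 2, 19.3, 7.83 and 8.04 CPM at node 5, and 3.51 and 4.59 CPM at node 10. Replicate 3 of node 2 stood with node 5 at BBCH77, and replicate 1 of node 5 was the highest library at BBCH90. Vitvi05g00094 had the highest mean at BBCH63, 465 ± 126 CPM, which was 261 ± 72.3 CPM at BBCH77 and 7.33 ± 9.96 CPM at BBCH90 (SD, n = 8). Its spread at BBCH90 came from node 5 replicate 3, with 31.8 CPM against 2.37 to 5.69 CPM in the other libraries.

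The lowest levels at BBCH90 were those of Vitvi03g01759, Vitvi04g01274 and Vitvi14g02876, with 1, 2 and 3 counts in the 8 libraries together. Vitvi03g01759 had 8.41, 11.997 and 19.1 CPM at node 2 at BBCH77, 38.6, 27.4 and 27.6 CPM at node 5, and 9.03 and 22.8 CPM at node 10. At BBCH90 its single count was in node 5 replicate 3. Its ratio of BBCH77 to BBCH90 was 6381, with a 95% exact Poisson interval of 1149 to 252791 that covers counting error only. The ratio of Vitvi04g01274 was 1903 (527 to 15725) and that of Vitvi14g02876 was 1755 (553 to 7835). Vitvi04g04354, the next lowest, had 9 counts and a ratio of 541. The intervals of the first 3 overlap, so that their order is not resolved at this depth.

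Differences between nodes were tested for all 22999 genes that passed the low-count filter, including all 68 members. The rule averaged over nodes, so a gene could enter through a high level at 1 node alone. The counts of members called and the adjusted p-values of single members are therefore a description. They give no support to a link between the fall at BBCH90 and the node. A gene was called when it differed at least 2-fold with an adjusted p under 0.05, as given by the quasi-likelihood test of edgeR after Benjamini-Hochberg correction across the whole table. At BBCH63, 13 members were lower at node 5 than at node 2 and 5 were higher, where 4.82% of all genes tested were called, 3.12% lower and 1.7% higher. At BBCH77, 13 were lower and 9 higher, where 4.89% of all genes were called, 3.7% lower and 1.19% higher. A total of 11 members were lower at both stages, 2 were higher at both, 41 were called at neither stage and 0 changed direction. These stages share no libraries, but the rule required similar means at both, so likeness between them follows in part from that choice. The sign of the difference was the same in 62 of the 68 members, and the share over all genes was not computed. The 18 calls at BBCH63 were 10 without replicate 2 of node 5 (2.87% of all genes) and 10 without replicate 3 of node 5 (2.01%). With only the libraries of the groups compared in the fit, 0 members and 0 of all genes were called at BBCH77, where node 2 holds the library that stood apart.

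**Figure D3:**
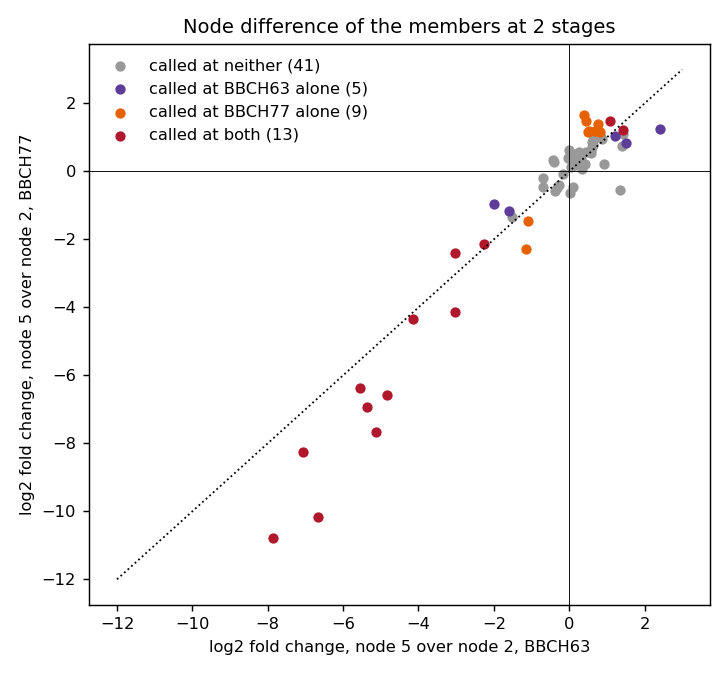
Log2 fold change of node 5 over node 2 for the 68 members at BBCH63 (horizontal axis) and at BBCH77 (vertical axis), with the dotted line marking equal values and colours marking the stages at which a member was called. The 11 members lower at both stages have values between -7.86 and -2.26 at BBCH63, and between -10.79 and -2.15 at BBCH77. The 41 called at neither lie nearer 0 than these, but some differ by more than 2-fold. Among them Vitvi06g01226 is at -1.52 and -1.34, and Vitvi06g00639 at 1.43 and 1.09, at BBCH63 and BBCH77.

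The 11 members lower at node 5 at both stages are Vitvi04g00009, Vitvi04g01671, Vitvi04g02160, Vitvi04g04502, Vitvi05g00430, Vitvi09g00427, Vitvi10g01737, Vitvi12g02340, Vitvi12g02348, Vitvi13g01902 and Vitvi19g00494. They were listed together after their calls were seen. In 7 of the 11 the BBCH77 means of nodes 5 and 10 were both under 10 CPM, so these met that limit through node 2. The summed level of the 11 at BBCH63 was 3715 ± 160 CPM at node 2 (SD, n = 3), 167 ± 93.8 CPM at node 5 (n = 3) and 75.2 ± 3.94 CPM at node 10 (n = 2). At BBCH77 it was 6936 and 5309 CPM in replicates 1 and 2 of node 2 and 103 CPM in replicate 3, against 107 to 148 CPM at node 5 and 98.5 and 137 CPM at node 10. At BBCH90 it was 14.02 to 72.9 CPM over all 8 libraries. Replicate 3 of node 2 at BBCH77 lay among the other nodes. At nodes 5 and 10 the levels differed widely between the genes, and Vitvi04g00009 stayed at 36.5 CPM or more in every kept library of these nodes before BBCH90, while Vitvi12g02340 stayed at 1.26 CPM or less.

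Vitvi04g00009 was the most abundant of them at BBCH77. At BBCH63 it had 751, 1091 and 1000.1 CPM at node 2, 98.3, 51.1 and 36.7 CPM at node 5, and 36.5 and 41.0 CPM at node 10. At BBCH77 it had 1716, 1313 and 46.4 CPM at node 2, 77.5, 56.7 and 54.6 CPM at node 5, and 63.3 and 52.6 CPM at node 10. At BBCH90 it had 12.5, 6.49 and 8.04 CPM at node 2, 21.3, 7.73 and 6.25 CPM at node 5, and 10.4 and 9.75 CPM at node 10. The groups of nodes 2 and 5 did not overlap at BBCH63, while at BBCH77 replicate 3 of node 2 was below every library of node 5. The log2 fold change of node 5 over node 2 was -4.13 ± 0.81 at BBCH63 (SE, adjusted p = 0.00525, edgeR) and -4.35 ± 0.82 at BBCH77 (adjusted p = 0.00581, edgeR). Without replicate 3 of node 2 the latter was -4.92.

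Vitvi12g02340 and Vitvi12g02348 had the largest falls from node 2 to node 5 at BBCH63. Vitvi12g02340 had 169, 89.0 and 93.4 CPM at node 2 at BBCH63, 1.26, 0.493 and 0.0222 CPM at node 5, and 0.352 and 0.0224 CPM at node 10. At BBCH77 it had 251, 129 and 0.0250 CPM at node 2, 0.163, 0.0756 and 0.0375 CPM at node 5, and 0.406 and 0.0940 CPM at node 10. At BBCH90 it had 1.19, 0.265 and 0.191 CPM at node 2, 5.67, 0.969 and 0.103 CPM at node 5, and 0.255 and 1.78 CPM at node 10. At nodes 5 and 10 this gene was as low before harvest as at harvest, and its BBCH90 mean at node 5, 2.25 CPM, was above its BBCH77 mean there, 0.0920 CPM. The log2 fold change of node 5 over node 2 was -7.86 ± 1.69 at BBCH63 (SE, adjusted p = 0.00855, edgeR) and -10.79 ± 2.02 at BBCH77 (adjusted p = 0.00575, edgeR). These values depend on few counts at node 5. The gene met the limit of 10 CPM through node 2 alone, so its p-values are a description. Without replicate 3 of node 2 the value at BBCH77 was -11.37.

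Vitvi12g02348 had 97.9, 53.3 and 61.9 CPM at node 2 at BBCH63 and 1.36, 0.521 and 0 CPM at node 5. The log2 fold change of node 5 over node 2 was -7.06 ± 1.46 (SE, adjusted p = 0.00700, edgeR), with no overlap between the groups. Vitvi04g04502 had 424, 267 and 324 CPM at node 2 at BBCH63, 8.39, 2.71 and 0.667 CPM at node 5, and 0.258 and 0.202 CPM at node 10. At BBCH77 it had 889, 523 and 0.650 CPM at node 2 and 0.465, 0.511 and 0.563 CPM at node 5. This gene was near its BBCH90 level, 0.491 CPM on average, in every library of nodes 5 and 10 at BBCH77.

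Vitvi13g01902 and Vitvi04g01671 had the same arrangement. Vitvi13g01902 had 1089, 902 and 1068 CPM at node 2 at BBCH63, 49.7, 22.3 and 3.35 CPM at node 5, and 4.46 and 2.80 CPM at node 10. Vitvi04g01671 had 462, 482 and 478 CPM at node 2 at BBCH63, 27.5, 18.8 and 0.689 CPM at node 5, and 1.22 and 2.62 CPM at node 10. In both genes the libraries of node 5 differed more among themselves, as a ratio, than those of node 2, with replicate 3 the lowest. Vitvi05g00430 showed the weaker form, with 112, 87.8 and 80.6 CPM at node 2 at BBCH63, 11.95, 15.9 and 11.6 CPM at node 5, and 10.9 and 13.5 CPM at node 10. Its log2 fold change of node 5 over node 2 was -3.03 ± 0.42 (SE, adjusted p = 0.000712, edgeR), the smallest adjusted p of the members in this comparison.

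**Figure D4:**
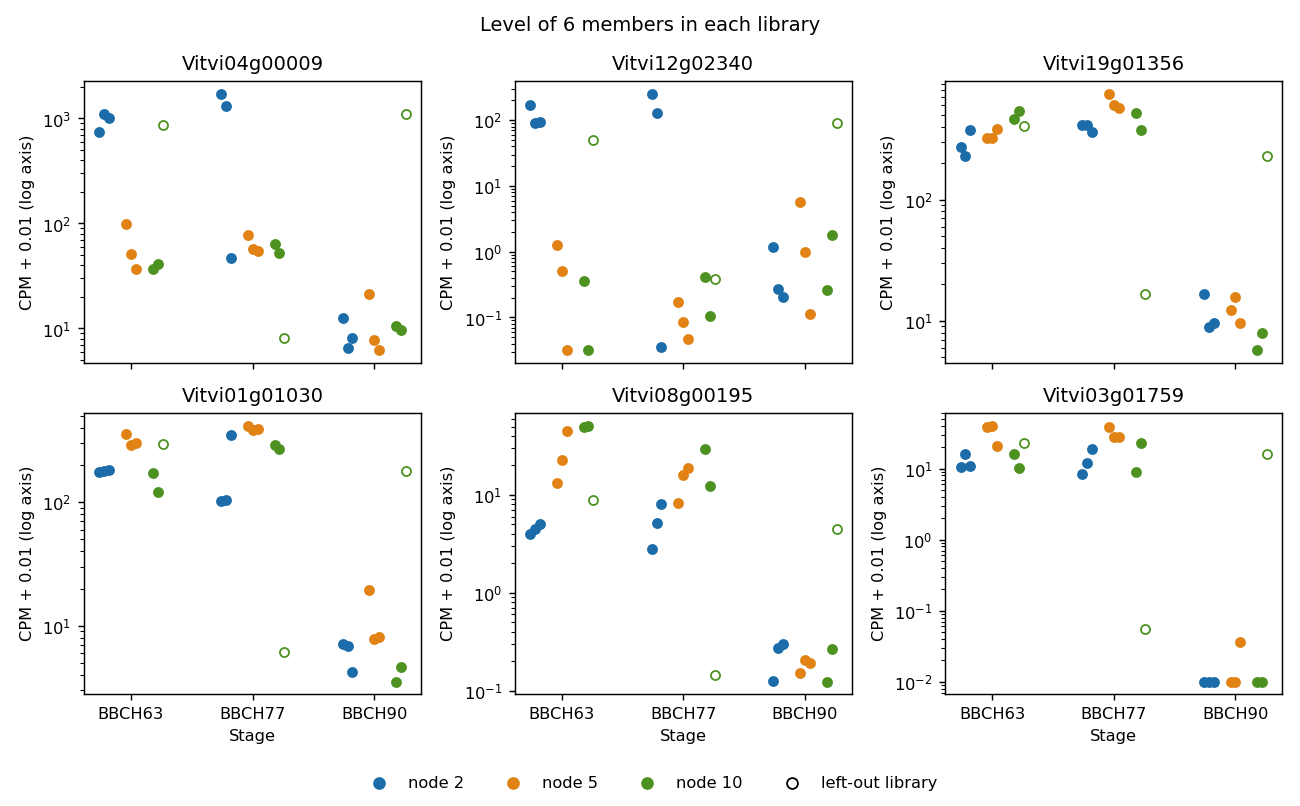
CPM + 0.01 (log axis) of 6 members in each library by stage, with nodes in colours, each point being 1 library and open points the 3 libraries left out. Vitvi04g00009 and Vitvi12g02340 are high at node 2 except in replicate 3 of BBCH77, Vitvi19g01356 and Vitvi01g01030 are high at every node before BBCH90, Vitvi08g00195 is lowest at node 2 before BBCH90, and Vitvi03g01759 reaches 0 in 7 of the 8 kept libraries of BBCH90.

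At BBCH77 replicate 3 of node 2 held the 11 members at a median of 0.614 of their node 5 mean, within 0.272 to 1.46. The lower of replicates 1 and 2 was above it by a median of 172-fold, and by 3.13-fold in the gene with the smallest difference. Conversely, the left-out library labelled BBCH63 node 10 replicate 3 was above every kept library of nodes 5 and 10 of that stage in all 11. Without BBCH77 node 2 replicate 3, 16 members were lower and 19 higher at node 5 at BBCH77, while the share of all genes called went from 4.89% to 12.1%. All 11 were still lower at node 5, and 13 members were then lower at both stages. The library removed was the node 2 library in which the 11 were low, so that they stayed lower was largely fixed in advance. The part of a library's labelling in these values was not tested.

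The size of the fall at nodes 5 and 10 differed among the 11. From BBCH77 to BBCH90, the mean of Vitvi19g00494 was 55.3-fold lower at node 5 and 23.9-fold lower at node 10, that of Vitvi05g00430 16.2-fold and 14.1-fold, that of Vitvi10g01737 3.50-fold and 16.2-fold, and that of Vitvi04g00009 5.35-fold and 5.75-fold. In Vitvi04g04502 the ratios were 1.05 and 1.31, and in Vitvi12g02340 and Vitvi12g02348 the BBCH90 mean was above the BBCH77 mean at both nodes. At node 2 all 11 were at most 1/32 of their BBCH77 mean. The 11 were listed for being low at node 5, so smaller falls there follow in part from that choice and are given as a description. In the other 57 members the limit of 1/32 was met by 48 at node 2, 48 at node 5 and 54 at node 10, and by 39 at each of the 3 nodes. The median BBCH90 level of these 57 was 1.84% of the BBCH77 level at node 2, 1.56% at node 5 and 1.16% at node 10. Every one of the 57 had a BBCH90 level of at most 7.04% of its BBCH77 level, whichever node was taken.

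The 57 other members summed to 3250 ± 425 CPM at node 2, 3880 ± 117 CPM at node 5 and 2958 ± 305 CPM at node 10 at BBCH63 (SD, n = 3, 3 and 2). At BBCH77 the sums were 2710 ± 462, 3940 ± 551 and 3103 ± 84.0 CPM, and at BBCH90 they were 49.8 ± 4.53, 81.97 ± 19.2 and 38.6 ± 2.79 CPM. Over the 16 kept libraries of BBCH63 and BBCH77 the highest level of a gene was a median of 5.06 times its lowest, and at most 10 times in 51 of the 57. In the 11 members described above it was a median of 259 times. The 11 were listed for a difference between nodes in these libraries, so their wider spread follows in part from that choice.

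**Figure D5:**
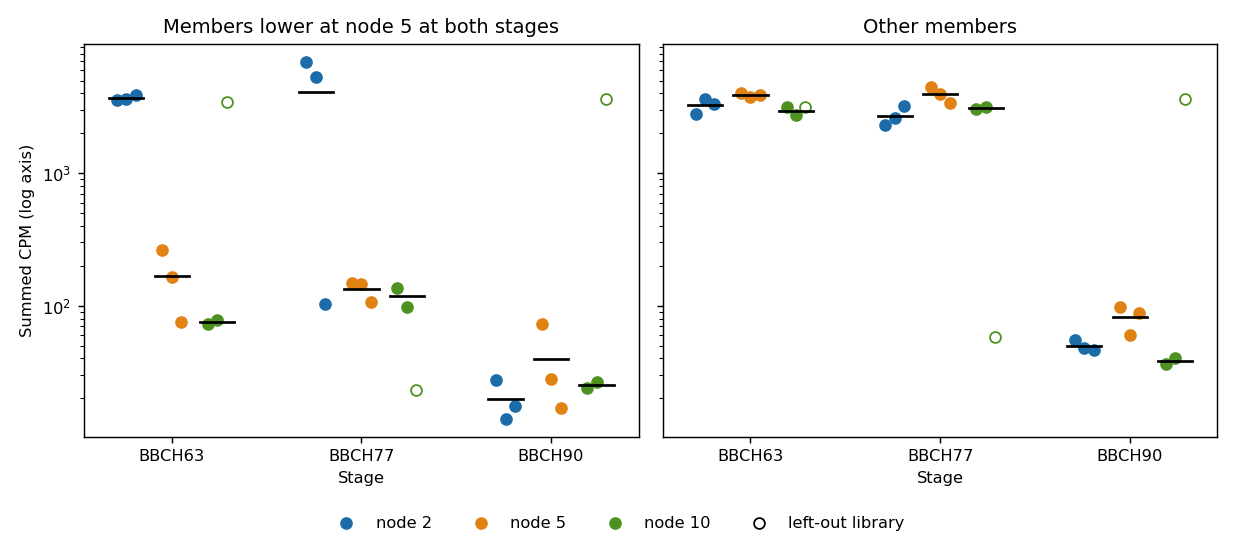
Summed CPM (log axis) by stage of the 11 members lower at node 5 at both stages (left) and of the other 57 members (right), with nodes in colours, points as libraries, open points as the libraries left out and black bars as the means of the kept libraries. The sums of the 57 lie between 2295 and 4493 CPM at BBCH63 and BBCH77 and between 36.6 and 97.2 CPM at BBCH90, whereas those of the 11 reach 3585 to 6936 CPM in 5 of the 6 libraries of node 2 and at most 262 CPM in the other kept libraries.

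Several of the 57 were lowest at node 2. Vitvi08g00195 had 3.95, 4.51 and 5.06 CPM at node 2 at BBCH63, 13.2, 23.01 and 45.3 CPM at node 5, and 48.9 and 51.0 CPM at node 10. The groups did not overlap, and the log2 fold change was 2.41 ± 0.44 for node 5 over node 2 (SE, adjusted p = 0.00329, edgeR) and 3.33 ± 0.47 for node 10 over node 2 (adjusted p = 0.000856, edgeR). At BBCH77 it had 2.80, 5.16 and 8.03 CPM at node 2, 8.32, 16.03 and 18.7 CPM at node 5, and 29.2 and 12.3 CPM at node 10. At that stage node 5 over node 2 was not called, with a log2 fold change of 1.25 (adjusted p = 0.0582, edgeR), and node 10 over node 2 was, with 1.84 ± 0.46 (SE, adjusted p = 0.0445, edgeR). Without replicate 3 of node 2 these were 1.57 (adjusted p = 0.0183, edgeR) and 2.16, and both were called. Every node 2 library of both stages was under 10 CPM. The gene met that limit through nodes 5 and 10, so its p-values are a description.

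Vitvi14g02893 had 4.02, 4.64 and 8.33 CPM at node 2 at BBCH63 and 15.6, 9.97 and 29.4 CPM at node 5, without overlap. Its log2 fold change was 1.51 ± 0.43 (SE, adjusted p = 0.0323, edgeR). At BBCH77 the largest rises from node 2 to node 5 were those of Vitvi11g00518 and Vitvi08g01644. Vitvi11g00518 had 61.8, 94.96 and 171 CPM at node 2, 616, 256.1 and 299.9 CPM at node 5, and 148 and 270.5 CPM at node 10, and its log2 fold change of node 5 over node 2 was 1.65 ± 0.39 (SE, adjusted p = 0.0144, edgeR). Vitvi08g01644 had 3.12, 4.40 and 10.0 CPM at node 2 and 19.9, 20.2 and 15.03 CPM at node 5, and its log2 fold change was 1.47 ± 0.34 (SE, adjusted p = 0.0123, edgeR). In both genes replicate 3 of node 2 was the nearest to node 5 among the libraries of node 2, and without it the values were 2.02 and 1.98. Vitvi14g02893 at BBCH63 and Vitvi08g01644 at BBCH77 met the limit of 10 CPM through nodes 5 and 10. Their p-values are therefore a description.

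Replicate 1 of node 2 was the lowest of the 8 libraries in 33 of the 68 members at BBCH63 and again in 33 at BBCH77. Its median ratio to the other libraries of the stage was 0.600 and 0.591. At BBCH77 the 9 members higher at node 5 became 1 without replicate 1 of node 2, 1 without replicate 2 of node 2 and 1 without replicate 1 of node 5, where 0.846%, 2.71% and 1.56% of all genes were called. The 13 lower members became 8, 11 and 8 in the same order.

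Node 10 was compared with node 2 in 2 libraries against 3. At BBCH63, 16 members were lower at node 10 and 1 was higher, where 4.61% of all genes tested were called, 2.99% lower and 1.62% higher. At BBCH77, 12 were lower and 1 higher, where 1.6% of all genes were called, 1.33% lower and 0.261% higher. Node 10 and node 5 were set against the same libraries of node 2. The log2 fold changes of the 11 members lay between -10.65 and -3.08 for node 10 over node 2 at BBCH63, and between -9.79 and -2.29 at BBCH77, with the lowest values in Vitvi04g04502. Without BBCH77 node 2 replicate 3 the latter were between -10.37 and -2.73. Vitvi12g02340 had -9.45 and -9.22 at these stages. Among the other 57 members, 5 were lower at BBCH63 and 2 at BBCH77.

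These counts rest on single libraries. At BBCH63 they were 1 without replicate 1 of node 10 (0.456% of all genes) and 3 without replicate 2 (0.789%). At BBCH77 they were 0 without replicate 1 or replicate 2 of node 2 or without either replicate of node 10, where 0 to 36 of all genes were called, and 26 without replicate 3 of node 2, where 10.5% of all genes were. With only the groups compared in the fit, 0 members were called at BBCH77. The counts also rest on leaving out replicate 3 of node 10. With all 27 libraries, 0 members were called at BBCH63 and at BBCH77, as were 0.0176% and 0% of all genes.

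Between nodes 10 and 5, edgeR called 0 members and 0% of all genes at BBCH63 and at BBCH77. At an unadjusted p under 0.05 there were 15 and 5 members, and 2479 and 785 of all 22999 genes tested. DESeq2 called 0 members and 0.359% of all genes at BBCH63, and 1 member and 0.00342% of all genes at BBCH77. Without BBCH63 node 5 replicate 3, edgeR called 0 members and 0.0609% of all genes at BBCH63. In the main fit at BBCH63 the log2 fold change of node 10 over node 5 was below 0 in 58 of the 68, with a median of -0.63, where the median over all genes was -0.000836. At BBCH77 it was below 0 in 47, with a median of -0.30, where the median over all genes was 0.00238. The share of all genes below 0 was not computed.

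The node differences were also compared between the 2 earlier stages. For node 5 against node 2, edgeR called 0 members and 0.013% of all genes, all of them higher, and DESeq2 called 0 members and 0.51% of all genes. At an unadjusted p under 0.05 in edgeR there were 3 members and 2377 of all 22999 genes tested. For node 10 against node 2, edgeR called 0 members and 0.0174% of all genes (0.00435% lower and 0.013% higher), and DESeq2 called 0 members and 0.893% of all genes. Here 5 members and 2833 of all genes tested had an unadjusted p under 0.05 in edgeR. Without BBCH77 node 2 replicate 3, 5 members were called in each, as were 2.17% and 3.39% of all genes.

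The remaining level at BBCH90 differed between libraries of the same node. The members summed to 82.5, 61.8 and 64.1 CPM at node 2, 170, 88.5 and 105 CPM at node 5, and 60.4 and 66.9 CPM at node 10. The libraries of node 5 were the highest, and replicate 1 stood above the others. It was the highest of the 8 libraries in 31 of the 68 members, with a median of 1.51 times the mean of the other libraries. In the same library the median ratio was 2.66 over the 119 other steady genes with a fall of 16- to 32-fold, 1.59 over 185 genes with a fall of 8- to 16-fold, 1.01 over 9164 genes that changed less than 2-fold and 0.927 over 617 genes that rose 2-fold or more. Genes that fell were thus higher in it than in the other harvest libraries. Without it the same rule gave 90 genes, which included 67 of the 68.

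Vitvi13g01902 was among those raised in this library, with 29.2 CPM in node 5 replicate 1 against 1.09 to 8.96 CPM elsewhere at BBCH90. Replicate 3 of node 5 was the highest library in 10 other members, among them Vitvi05g00094 as above and Vitvi18g00917, with 2.79 CPM against 0.203 to 1.32 CPM. Those were different genes from the ones highest in replicate 1, as each member has 1 highest library.

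At BBCH90 edgeR called 0 members and 0% of all genes in each comparison of nodes. At an unadjusted p under 0.05 there were 15 members for node 5 against node 2, 2 for node 10 against node 2 and 19 for node 10 against node 5. Of all 22999 genes tested, 1812, 2185 and 2088 were under this limit in the same order. DESeq2 called 5 members higher at node 5 than at node 2, 0 between nodes 10 and 2, and 8 lower at node 10 than at node 5, where it called 0.626%, 0.448% and 0.503% of all genes. The median log2 fold change of the 68 was 0.47 for node 5 over node 2 and -0.74 for node 10 over node 5, where the medians over all genes were 0.03 and -0.03.

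None of the genes that the study names or lists by identifier was a member. Its group C holds 138 genes that it called lower at every node from each stage to the next, by at least 2-fold, on these samples. Of these, 42 fell at least 32-fold from BBCH77 to BBCH90, and all 42 had a ratio of BBCH77 to BBCH63 of 0.5 or less. That ratio follows from how the list was chosen, so the absence of members from it was largely fixed in advance. Of the 7 flowering genes of the study, 1 fell at least 32-fold, VvTFL1A, a homologue of the Arabidopsis gene that keeps the shoot apex vegetative. It was at 4.15 CPM at BBCH77 and 0.128 CPM at BBCH90, below the level that the members had to have. None of its 3 dormancy-associated genes did, and their median ratio of BBCH77 to BBCH90 was 0.421.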

How the data were processed

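RNA-Seq libraries (Illumina TruSeq Stranded mRNA) of 9 groups of 3 replicates were used. The authors trimmed adaptors, aligned the reads to PN40024.v4 and deposited the raw counts per gene and library, not normalized. The submitters' processing notes list FastQC, HISAT2 and HTSeq without versions. CPM were computed as count divided by the library total, without further scaling. Strand and multi-mapping settings of the counting are not given in the sources used here, so reads of near-identical genes could be split between copies.

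Genes that passed filterByExpr (minimum count 10) were tested in edgeR 4.0.16 (R 4.3.3) on 24 libraries, with TMM scaling, 1 mean per group and the quasi-likelihood test. Standard errors were derived as |log2 fold change| / √F of the test. Alternatives were DESeq2 1.42.0, median-ratio scaling, no filter, all 27 libraries, a replicate block, only the groups compared, an adjusted p limit of 0.01, and each library left out in turn. Scripts were tested on simulated counts.

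The members, lists and tests were chosen with earlier results of these data known. Genes named are the 8 with the highest BBCH77 mean, the 4 with the lowest ratio of BBCH90 to BBCH77, the 3 on each side of the fold limit, and up to 2 rises and 2 falls called in each comparison of nodes 5 or 10 with node 2 at BBCH63 and BBCH77. Others are named as members of a list or chosen after their values were seen. No identifier of the table matched the 29591 genes of the reference table, so product classes, cell type markers, promoters and sequences were not analysed here.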

Additional observations from a re-analysis of the deposited data

Results flagged for a closer look

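A library was looked at again where its distance to the nearest of the 8 libraries of its stage, divided by the range of the stage, exceeded Dixon's 95% critical value of 0.526. Chance alone gives this in about 1 of 20 groups. At BBCH90 the summed level of the 68 members stood apart in node 5 replicate 1, at 170 CPM. One library stood apart in 28 of the 68 members at BBCH90, in 18 of them node 5 replicate 1 and in 7 node 5 replicate 3, against 1 member at BBCH63 and 2 at BBCH77. Among the named genes, node 5 replicate 1 stood apart in Vitvi04g00009 (21.3 CPM), Vitvi13g01902 (29.2 CPM), Vitvi01g01030 (19.3 CPM) and Vitvi12g02340 (5.67 CPM). Node 5 replicate 3 did so in Vitvi05g00094 (31.8 CPM) and Vitvi18g00917 (2.79 CPM). Vitvi03g01759 (0.0258 CPM, a single count, in node 5 replicate 3) and Vitvi04g01274 (0.0516 CPM, in node 10 replicate 2) stood apart because every other library was at 0. At BBCH77 Vitvi11g00518 stood apart in node 5 replicate 1, at 616 CPM.

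The libraries left out of the comparisons also held members. Their sum was 6619 CPM in the library labelled BBCH63 node 10 replicate 3, 80.9 CPM in that labelled BBCH77 node 10 replicate 3, within the range of BBCH90, and 7280 CPM in that labelled BBCH90 node 10 replicate 3, equal to BBCH63 node 2 replicate 2.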

How the results depend on the processing

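The rule gave 62 genes with TMM-scaled CPM (58 shared with the 68), 64 to 90 with 1 library left out, 187 at a fold limit of 16, 30 at 64 and 2 with all 27 libraries. The last value was largely fixed in advance by the BBCH63 counts held under a BBCH90 label. With all 27 libraries 0 members were called in every comparison of nodes. At an adjusted p limit of 0.01 the calls fell from 18 to 9 (node 5 against node 2) and from 17 to 7 (node 10 against node 2) at BBCH63, and from 22 to 10 and from 13 to 0 at BBCH77. With only the 2 groups fitted, 0 members were called in both comparisons with node 2 at BBCH77, and 1 between nodes 10 and 5 at BBCH63. DESeq2 called 1 member between nodes 10 and 5 at BBCH77, and at BBCH90 5 between nodes 5 and 2 and 8 between nodes 10 and 5. With 1 library left out, the calls ranged from 10 to 14 and from 1 to 18 at BBCH63, from 9 to 35 and from 0 to 26 at BBCH77, from 0 to 1 between nodes 10 and 5 at BBCH90, and from 0 to 5 in each comparison of node differences between stages. The correlations of same-numbered deviations ran from -0.17 to 0.45, the highest for nodes 2 and 5 at BBCH90. Whether replicate numbers pair the libraries was therefore not settled, and the main fit did not pair them. With the replicate block 22, 21, 22 and 17 members were called in the 4 comparisons with node 2 before BBCH90, and 0 in the others. The shares of all genes called in these 4 were 5.68%, 7.13%, 5.37% and 4.1%. Over the 37 calls of named genes, 313 of 464 values kept their call and 151 lost it, 37 of these with all 27 libraries and 74 without 1 library, and 0 reversed. The cause of these changes was not tested.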
